A study of Mus musculus with 16 samples.

Results

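The contrast examined here asks how much of the transcript change that follows loss of the oxygen sensor PHD2 depends on HIF2α. It is the change in the line lacking PHD2 minus the change in the line lacking both PHD2 and HIF2α, computed for each gene from the means of 4 groups. All 16 libraries of the series entered it, with 4 libraries in each group, and 14080 of the 49585 genes in the deposited counts had enough reads to be tested. A positive value means a larger increase, or a smaller decrease, in the PHD2 line. Negative values mean a larger increase, or a smaller decrease, when HIF2α was missing as well.

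The series measured total RNA of neutrophils that had been isolated by FACS, a sort on fluorescent labels. The tissue is given as bones, the strain as C57BL/6 and the age as 8 to 12 weeks, and the title of the series places it in the question of how HIF2α acts on neutrophil motility. P2KO libraries came from Vav:cre-PHD2f/f mice and P2WT libraries from the wild-type controls of that line. P2H2KO libraries came from Vav:cre-PHD2/HIF2ff/ff mice and P2H2WT libraries from the controls of the other line. Vav:cre is a recombinase driven in blood-forming cells, so both deletions reach all blood lineages and not neutrophils alone. Whether cells outside the blood lineages kept the genes is not given. Which alleles the controls carried is not given beyond wild type. The labels do not say that each library came from a separate animal, so the p values measure the spread between these libraries, which may be technical.

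PHD2 is an enzyme that uses oxygen to hydroxylate the α subunits of the hypoxia-inducible factors, which marks them for destruction through the VHL protein. Without PHD2 the subunits HIF1α and HIF2α accumulate, pair with the common partner ARNT and bind the same short core motif in DNA. In many cell types HIF1 is the main driver of glycolytic genes, whereas HIF2 has been tied to iron handling, erythropoietin and growth factor genes. Deleting HIF2α on top of PHD2 removes one of the 2 factors, so a transcript that needs HIF2α should change in the first line and not in the second, and would show a contrast as large as its change in the PHD2 line.

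Total counts per library ran from 23450746 to 28601284, and 19611 to 20439 genes had at least 1 count. The libraries were not pure neutrophils. The summed level of 13 neutrophil markers ran from 33040 to 86493 CPM (counts relative to the scaled library size), and that of 17 erythroid markers from 28588 to 58187 CPM, with none of either list at 0 in a group. P2KO replicate 6 stood apart. Its neutrophil sum was 77461 CPM, against 33040 to 46884 CPM in the other 3 P2KO libraries, and its median absolute deviation from the group mean was the highest of the 16 libraries, at 0.162 on the log2 scale. In bulk RNA, fewer cells of a type and less RNA per cell cannot be told apart. The title suffixes m and f were not balanced either, with 3 m libraries in P2KO and P2H2WT and 2 in P2WT and P2H2KO.

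The targeted genes showed neither deletion, and the contrast rests on the labels. Egln1, which encodes PHD2, was at 43.2, 47.5, 49.1 and 58.4 CPM in the P2KO libraries and at 45.9, 48.4, 48.9 and 51.3 CPM in P2WT. In the other line it was at 49.2, 50.3, 54.3 and 58.8 CPM in P2H2KO and at 47.9, 53.1, 53.3 and 54.6 CPM in P2H2WT. The groups overlapped in both lines, and the contrast was -0.00031 on the log2 scale, with a 95% interval from -0.26 to 0.26. Counts summed over a whole gene do not see the loss of single exons, so these levels check neither label.

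Epas1, which encodes HIF2α, was at 6.76, 7.58, 10.4 and 24.4 CPM in P2KO and at 8.70, 8.94, 11.1 and 11.3 CPM in P2WT. It was at 3.42, 4.51, 6.29 and 8.39 CPM in P2H2KO and at 2.55, 3.23, 3.47 and 4.97 CPM in P2H2WT. The controls of the 2 lines did not overlap, at 8.70 to 11.3 CPM in P2WT and 2.55 to 4.97 CPM in P2H2WT. The contrast therefore starts from unequal Epas1 levels in the controls. The 2 lines share no library, so line and sample set cannot be told apart as the source, which was not tested. Endothelial and stroma sums of the controls did not overlap either, whereas megakaryocyte sums did. The endothelial sum was 119 to 138 CPM in P2WT and 81.0 to 93.6 CPM in P2H2WT. The part of such cells in the Epas1 levels of the controls was not tested. For Epas1 the groups overlapped within each line, in the double line with no lower level in the libraries labelled deficient. The library at 24.4 CPM, P2KO replicate 9, was more than double the next. That library also had the highest megakaryocyte and endothelial sums of all 16, at 248 and 243 CPM, and their part in its Epas1 level was not tested. The contrast of Epas1 was -0.37 with an interval from -1.48 to 0.74, and the difference of the effects on the log2(CPM + 1) scale was -0.41 (exact two-sided permutation test over the 4900 relabellings within lines, p = 0.436). Leaving out P2KO replicate 9 gave -0.78 with an exact permutation p of 0.0343, before adjustment over the 4 genes tested in this way. Hif1a, which encodes HIF1α, gave a difference of -0.31 (exact permutation p = 0.192) and Rhoa, which encodes a small GTPase that controls cell contraction, gave -0.035 (exact permutation p = 0.751). Adjusted over the 4 genes, the exact permutation p values were 0.961 for Egln1, 0.872 for Epas1, 0.769 for Hif1a and 0.961 for Rhoa.

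Across the whole transcriptome no gene was called for the contrast. Of 14080 genes, 0 had an adjusted p under 0.05 in edgeR's quasi-likelihood test with Benjamini-Hochberg adjustment, the smallest being 0.999, and the called share was 0%. Counted without adjustment, 212 genes (1.51%) had a p under 0.05, of which 111 were positive (0.788%) and 101 negative (0.717%), and the 95% interval left out 0 for 207 (1.47%). By chance alone a share of about 0.05 would have a p under 0.05, so the 212 genes were fewer than chance gives. DESeq2 also called 0 genes, with 209 at an unadjusted p under 0.05. Each effect on its own called few genes, 10 in the PHD2 line (0.071%, all higher) and 12 in the double line (0.0852%, all higher). Deficient and control libraries did not overlap for 318 genes in the PHD2 line (2.26%) and for 250 in the double line (1.78%). With 4 libraries in each group some genes lack overlap by chance alone, so these are not counts of responding genes. The deficient and control libraries did not overlap, in the same direction in both lines, for 32 genes (0.227%). Opposite directions without overlap occurred in 1 gene (0.0071%). That gene was Dmp1, a bone matrix gene named after its values were seen, which stayed under 1 CPM in every group mean and had a contrast of 4.32 (interval 2.06 to 6.58).

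A count of 0 calls does not show that the effects were equal, so the size of difference that each gene's data allow was computed from its interval. For 10820 genes, 76.8% of those tested, the 95% interval lay inside -1 to 1, which leaves room for less than a doubling between the effects. It lay inside -0.5 to 0.5 for 6324 genes (44.9%). With intervals widened so that all 14080 hold jointly, 3814 genes (27.1%) remained inside -1 to 1. The median interval reached 0.42 to either side of the estimate.

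The reach differed between expression classes. Among the 9817 genes with a mean of at least 5 CPM, 94.3% had intervals inside -1 to 1 and 63.1% inside -0.5 to 0.5, and 22 had an estimate beyond 1 in either direction. The median reach was 0.28 for the 4655 genes at 20 to 100 CPM and 0.31 for the 2305 genes above 100 CPM. It was 0.38 for the 2857 genes at 5 to 20 CPM and 0.68 for the 2264 at 1 to 5 CPM. For the 1999 genes under 1 CPM it was 1.09, and only 10.5% of them had an interval inside -1 to 1. Abundance did not always bring a short interval: the 13 neutrophil markers had a median reach of 0.84, and Ngp, a granule protein gene at a mean of 11794 CPM, had 0.78. The widest class was the 184 antigen receptor segments, whose level depends on which lymphocyte clones are present, with a median reach of 2.05 and 1.63% inside -1 to 1. For most genes under 1 CPM the interval therefore did not leave out a doubling.

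**Figure D1:**
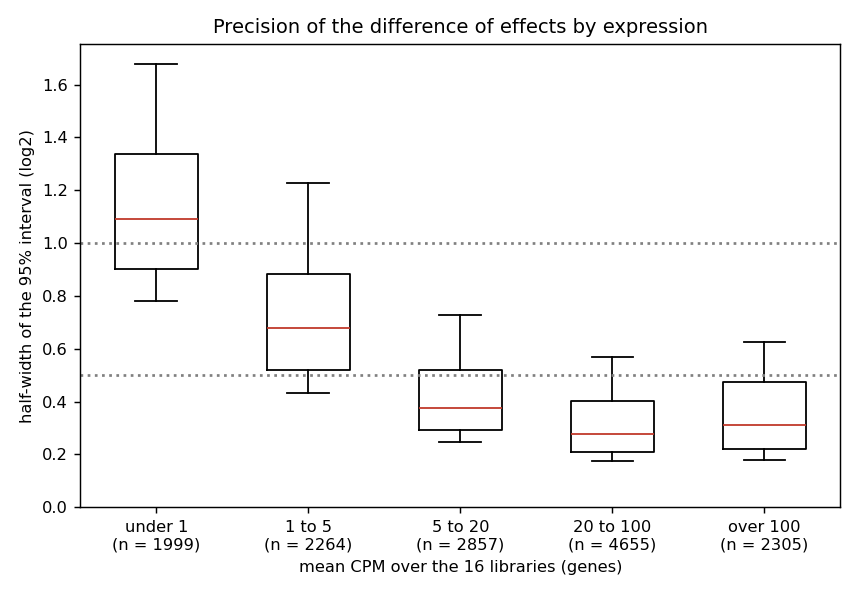
The vertical axis gives the distance from the estimate to either end of the 95% interval of the contrast, in log2 units, and the horizontal axis the mean CPM over the 16 libraries with the number of genes in each class; boxes span the middle 50% of genes, red lines are medians, whiskers reach the 10th and 90th percentiles, and dotted lines mark 0.5 and 1. The median falls from 1.09 under 1 CPM to 0.28 at 20 to 100 CPM and is 0.31 above 100 CPM.

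The limits matter most for genes that respond to the loss of PHD2. Such genes were picked by the mean of the 2 effects, which in a balanced design is nearly independent of their difference. A gene that changes in the PHD2 line alone has a smaller mean, so the pick favours genes that respond in both lines. The mean effect was called for 24 genes (0.17%), with 20 higher (0.142%) and 4 lower (0.0284%) in the deficient libraries. All 20 higher genes were without overlap between the deficient and control libraries in both lines. The contrast was negative in 16 of the 20 and positive in 4, with a median of -0.15 and a range from -0.34 to 0.72, against 6988 negative of all 14080 genes and a median of 0.0012. All 20 intervals include 0. None of the 20 had an unadjusted p under 0.05 for the contrast, against 1.51% of all genes. In all 20 the upper end of the interval lay below the gene's log2 fold change in the PHD2 line. That upper end came to between 2.51% and 83.5% of the change in the PHD2 line, taken at its estimate, with a median of 29.2%. An upper end below the change in the PHD2 line means only that the change in the double line exceeds the reach of the interval. Picking genes by the mean effect makes this likely. The 20 include Gm6472, Iqcg, Ak4, Ankrd37 and other genes described below.

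**Figure D2:**
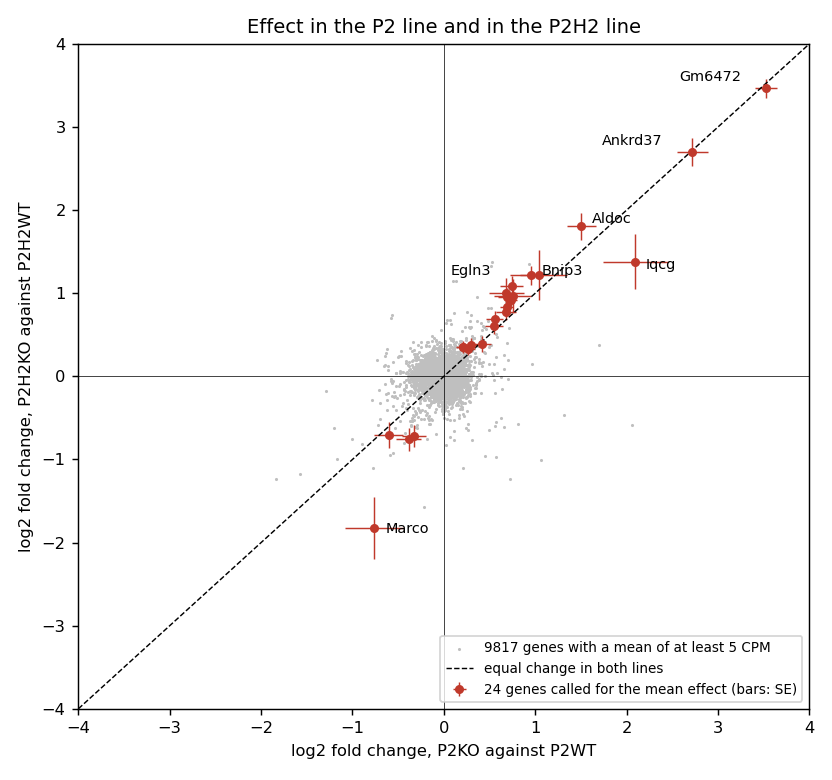
Each point is a gene, with the log2 fold change of P2KO against P2WT on the horizontal axis and that of P2H2KO against P2H2WT on the vertical axis; grey points are the 9817 genes with a mean of at least 5 CPM, red points the 24 genes called for the mean effect with bars for the standard error, and the dashed line marks equal change. Gm6472, at 3.53 and 3.47, and Ankrd37, at 2.72 and 2.70, lie by the dashed line, and Marco, at -0.76 and -1.82, and Iqcg, at 2.10 and 1.38, lie farther from it.

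Ankrd37, an ankyrin repeat gene long known as a HIF target, had the largest log2 fold change of the coding genes among the 20. It was at 3.75, 3.99, 4.76 and 4.95 CPM in P2KO and at 0.526, 0.593, 0.721 and 0.789 CPM in P2WT. It was at 4.28, 4.71, 5.50 and 6.17 CPM in P2H2KO and at 0.697, 0.768, 0.837 and 0.859 CPM in P2H2WT. Every deficient library of either line was above every control library of both. The log2 fold changes were 2.72 (SE 0.17, edgeR adjusted p = 4.52e-07) and 2.70 (SE 0.17, edgeR adjusted p = 3.83e-07), and the contrast was 0.02 with an interval from -0.49 to 0.53. The upper end was 19.3% of the change in the PHD2 line. Ankrd37 (chromosome 8, 45996902 to 46005707, minus strand; all coordinates are those of GENCODE M21 on GRCm38, the assembly called mm10 in the submitters' notes) overlaps the genes Lrp2bp and Ufsp2, so shared reads are possible.

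Enzymes of glucose breakdown followed. Aldoc, the gene of aldolase C (chromosome 11, 78322968 to 78327781), was at 5.04, 5.63, 5.81 and 5.95 CPM in P2KO and at 1.90, 1.95, 2.02 and 2.03 CPM in P2WT. It was at 5.71, 6.29, 6.45 and 8.62 CPM in P2H2KO and at 1.55, 1.57, 2.17 and 2.46 CPM in P2H2WT. The controls of the 2 lines overlapped, 3 of the 4 P2H2KO libraries were above every P2KO library, and the contrast was -0.30 with an interval from -0.78 to 0.18.

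Pfkl, which encodes the liver-type phosphofructokinase (chromosome 10, 77986947 to 78010083), had the tightest limit relative to its change. It was at 90.8, 96.1, 100.4 and 100.8 CPM in P2KO and at 55.4, 56.7, 60.1 and 60.7 CPM in P2WT. It was at 100.04, 102.3, 110.4 and 120.4 CPM in P2H2KO and at 54.5, 56.5, 57.6 and 60.9 CPM in P2H2WT. The controls of the lines coincided and the P2H2KO libraries reached higher. Its contrast was -0.18, with an interval from -0.38 to 0.02, and the upper end was 2.51% of its change of 0.74 (SE 0.066) in the PHD2 line. Tpi1, the triosephosphate isomerase gene, gave -0.14 (interval -0.35 to 0.066) and Pdk1, whose kinase inhibits pyruvate dehydrogenase, -0.14 (interval -0.43 to 0.15).

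The other HIF target genes among the 20 behaved alike. Bnip3, a mitophagy receptor (chromosome 7, 138890836 to 138909519), was at 11.5, 12.1, 12.4 and 16.05 CPM in P2KO and at 5.82, 6.13, 7.25 and 7.64 CPM in P2WT. In the other line it was at 16.4, 18.4, 18.5 and 19.8 CPM in P2H2KO and at 6.77, 7.74, 8.20 and 8.77 CPM in P2H2WT. Every P2H2KO library exceeded every P2KO library while the controls overlapped, and the contrast was -0.26 (interval -0.62 to 0.10).

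Egln3, the gene of the related sensor PHD3 (chromosome 12, 54178981 to 54203860), was at 13.4, 15.6, 18.4 and 22.1 CPM in P2KO and at 9.71, 10.1, 10.2 and 11.5 CPM in P2WT. It was at 20.1, 23.7, 25 and 26.5 CPM in P2H2KO and at 10.3, 11.2, 11.3 and 12.1 CPM in P2H2WT. The deficient groups of the 2 lines overlapped by 1 library. Its contrast, -0.34, was the most negative of the 20 (interval -0.73 to 0.046).

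P4ha1 encodes a collagen prolyl 4-hydroxylase subunit (chromosome 10, 59323296 to 59373304) and gave -0.27 (interval -0.57 to 0.040). It was at 43.9, 52.6, 53.4 and 54.7 CPM in P2KO and at 27.0, 32.9, 33.2 and 33.5 CPM in P2WT. It was at 53.8, 55.1, 57.9 and 69.5 CPM in P2H2KO and at 26.4, 30.3, 31.6 and 33.2 CPM in P2H2WT. Here too the controls of the lines covered the same range, and the deficient groups met. Kdm3a, a histone demethylase gene, gave -0.15 (interval -0.34 to 0.037) and Mif, the gene of a cytokine, -0.06 (interval -0.35 to 0.23). Ak4, a mitochondrial adenylate kinase gene, gave -0.32 (interval -0.89 to 0.26).

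The remaining genes of the 20 had limits of the same kind or wider. Gm6472, a transcribed processed pseudogene, changed most, with log2 fold changes of 3.53 (SE 0.12) and 3.47 (SE 0.12) and a contrast of 0.06 (interval -0.30 to 0.42). It is 99.4% identical to the ribosomal protein gene Rps7 over 651 bases, so its counts depend on how shared reads were assigned. Iqcg had the weakest limit. It was at 0.773, 0.932, 1.23 and 1.23 CPM in P2KO, 0.121 to 0.376 CPM in P2WT, 0.631 to 1.43 CPM in P2H2KO and 0.271 to 0.438 CPM in P2H2WT. At such levels its contrast of 0.72 had an interval from -0.32 to 1.75, and the upper end was 83.5% of its change in the PHD2 line. The other 7 of the 20 were Grhpr (-0.10), Zfp292 (-0.08), Dubr (-0.21), Snx25 (-0.06), Trappc6a (0.03), Apba3 (-0.15) and Gm26571 (-0.18), with the contrast in parentheses. Apba3 and Gm26571 lie outside the rule for naming genes and were named after their values were seen. Near-identical copies also make the counts of Bnip3 (Gm16439, 98.9%), Ak4 (Ak3l2-ps, 99.6%), Mif (Gm10169, 99.1%) and Tpi1 (Tpi-rs11, 97.7%) uncertain. Outside the 20, the same holds for Rhoa (Gm12844, 98.1%) and Tmem41b (Gm6223, 99.2%).

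The 4 genes lower in the mean effect all had a positive contrast, with intervals that include 0 for 3 of them. Siglec1 and Marco are macrophage genes, and the 17 monocyte and macrophage markers were lower as well, with medians of -0.30 in the PHD2 line, where 0 of 17 were higher, and -0.29 in the double line, where 6 were. Their part in the 4 genes was not tested. Siglec1, a sialic acid receptor of macrophages, was at 39.7, 41.5, 49.3 and 52.1 CPM in P2KO and at 61.0, 65.6, 68.6 and 81.8 CPM in P2WT. It was at 25.2, 28.1, 36.8 and 44.7 CPM in P2H2KO and at 45.6, 54.2, 57.9 and 62.1 CPM in P2H2WT. It was the 1 gene of the 4 without overlap in both lines, and its contrast was 0.10 (interval -0.38 to 0.58). Kcnj10, a potassium channel gene, gave 0.37 (interval -0.038 to 0.78). Il18 and Marco, a cytokine and a scavenger receptor gene named after their values were seen, gave 0.40 and 1.06. Marco, at 0.216 to 1.55 CPM in all libraries, was the 1 gene of the 24 with an unadjusted p under 0.05 for the contrast (interval 0.014 to 2.11). That was lost in 10 of the 16 fits with a library left out, with 0.68 (interval -0.26 to 1.63) without P2KO replicate 9.

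These 24 calls were not equally firm. When each library in turn was omitted, which makes 16 fits, 14 genes were called every time, among them Ankrd37, Aldoc, Pfkl, Tpi1, Pdk1, P4ha1, Bnip3, Egln3, Mif, Ak4 and Kdm3a. Siglec1 was called in 7 of the 16, Trappc6a and Il18 in 4 each, Marco in 3, Apba3 in 2 and Gm26571 in 1. The whole set numbered 15 without P2WT replicate 4, of which 14 were among the 24.

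**Figure D3:**
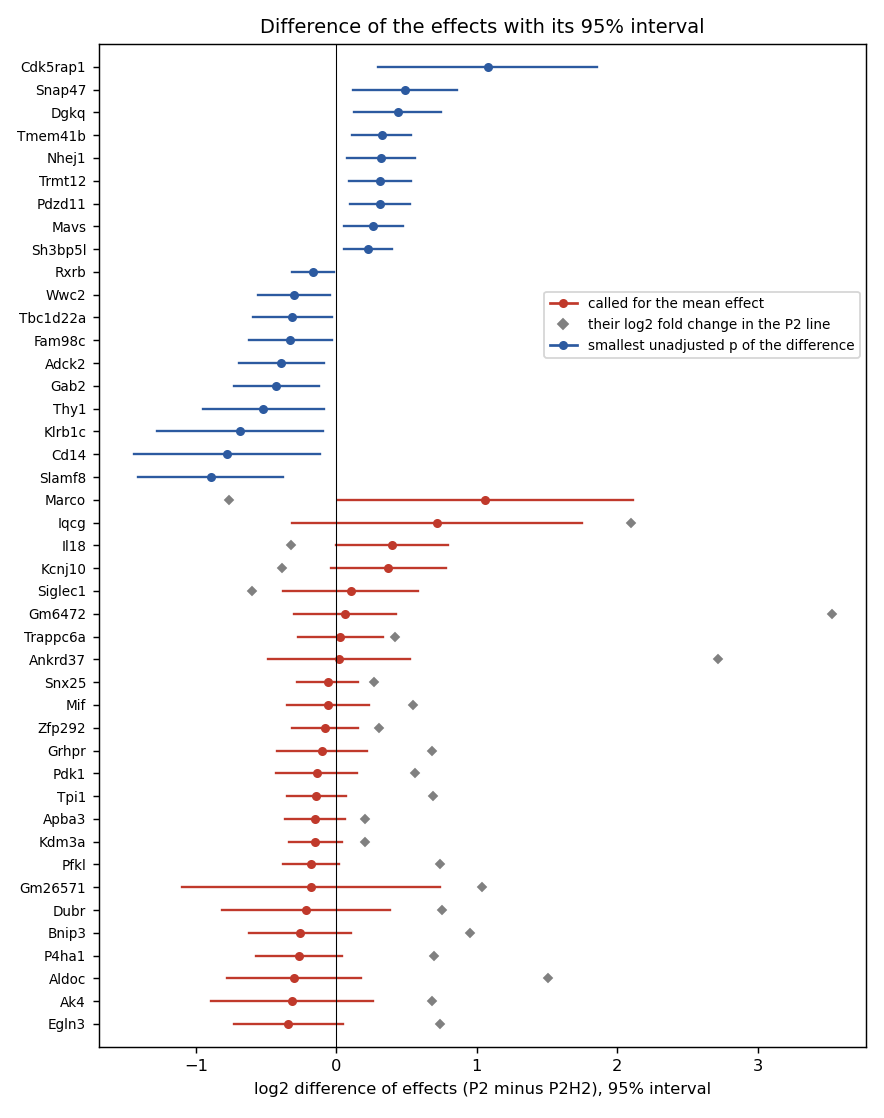
Circles give the contrast (the effect in the PHD2 line minus that in the double line) on a log2 scale with its 95% interval; red marks the 24 genes called for the mean effect, grey diamonds their log2 fold change in the PHD2 line, and blue the coding genes with the smallest unadjusted p of the contrast at 5 CPM or more, apart from Prg4 at 7.36, which would lie off the axis. For every rising red gene the interval ends to the left of its diamond, as for Ankrd37 with 0.53 against 2.72. The pick by the mean effect makes this likely.

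The windows upstream of these genes were read because both HIF factors recognise the same core. The RefSeq promoter table (GRCm38.p6) matched 18 of the 20 rising genes, with 26 windows of 250 bases before a start, and 3 of the 4 falling genes. The words ACGTG and GCGTG were searched on both strands, so the palindrome CACGTG counts on each strand. Either word was present in 16 of the 26 windows (61.5%), against 12659 of the 32817 windows in the table (38.6%). ACGTG was in 7 (26.9% against 16.6%) and GCGTG in 13, against 28.1% of all windows. Of the 3 windows of falling genes, 0 held either. Several windows of 1 gene overlap, and a match is a run of letters and not a bound site. Windows of 4 genes with the motif in capitals are shown. They were chosen after the matches were seen, as the windows with ACGTG whose genes had an upper end under 20% of the change in the PHD2 line; Pfkl, Aldoc and 1 of 3 Kdm3a windows hold only GCGTG, and the Tpi1 window holds neither. Bases in annotated exons were left out.
Ankrd37: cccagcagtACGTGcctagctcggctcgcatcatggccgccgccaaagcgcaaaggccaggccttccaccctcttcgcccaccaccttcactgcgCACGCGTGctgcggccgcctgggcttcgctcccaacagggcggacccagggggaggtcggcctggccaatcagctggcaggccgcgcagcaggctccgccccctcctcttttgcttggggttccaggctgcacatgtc
Bnip3: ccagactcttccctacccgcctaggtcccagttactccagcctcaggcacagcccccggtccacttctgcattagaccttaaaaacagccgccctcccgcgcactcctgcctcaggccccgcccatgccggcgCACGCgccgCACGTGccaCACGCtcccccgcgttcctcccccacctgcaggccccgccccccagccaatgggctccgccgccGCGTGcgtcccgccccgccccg
P4ha1: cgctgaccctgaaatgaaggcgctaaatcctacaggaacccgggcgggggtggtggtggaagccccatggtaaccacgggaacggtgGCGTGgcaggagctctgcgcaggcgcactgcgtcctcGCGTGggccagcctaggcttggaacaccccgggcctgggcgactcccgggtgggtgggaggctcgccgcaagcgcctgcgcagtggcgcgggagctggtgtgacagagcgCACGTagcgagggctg
Egln3: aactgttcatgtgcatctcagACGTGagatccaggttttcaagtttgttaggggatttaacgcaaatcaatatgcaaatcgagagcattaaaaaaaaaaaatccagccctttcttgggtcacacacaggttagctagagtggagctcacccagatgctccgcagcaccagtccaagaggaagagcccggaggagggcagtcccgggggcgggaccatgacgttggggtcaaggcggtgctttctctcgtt
The Ankrd37 window is chr8:45999868-46000100 on the minus strand, with 3 matches, 2 of which overlap in CACGCGTG. The Bnip3 window is chr7:138909520-138909756 on the minus strand, with 5 matches within 237 bases. That of P4ha1 is chr10:59323046-59323295 on the plus strand, with 3 matches. That of Egln3 is chr12:54203875-54204124 on the minus strand, with 1 match. All lie upstream of the RefSeq start.

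Of 22 genes for glucose transport and glycolysis tested, 0 were called for the contrast, 20 were negative and 2 positive, with a median of -0.18 against 0.0012 over all genes. The medians of the effects were 0.23 in the PHD2 line and 0.43 in the double line, and 21 of 22 genes were higher in each. Gapdh gave -0.30 (interval -0.73 to 0.13) and Slc16a3, a lactate exporter gene, -0.51 (interval -1.40 to 0.37). The positive members were Hk1 (0.15) and Pfkm (0.15). No member had an unadjusted p under 0.05. The median ran from -0.35 without P2KO replicate 6 to -0.092 without P2KO replicate 9, and in the m libraries alone it was 0.20, with 16 of 22 positive. Only 4 of the 22 had an interval inside -0.5 to 0.5, and 20 inside -1 to 1. Neutrophil markers moved with this list, with 13 of 13 negative and a median of -0.20, while erythroid markers had 17 of 17 positive and a median of 0.24.

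With erythroid and late granule scores of each library as covariates, the median of the glycolysis list was -0.03, with 16 of 22 negative, and 20 of the 22 had an interval inside -0.5 to 0.5. Ldha, the lactate dehydrogenase gene, was then at -0.013 (interval -0.13 to 0.10) against a change of 0.37 in the PHD2 line. Aldoa was at -0.027 (interval -0.17 to 0.11) against 0.47. Eno1 was at -0.028 (interval -0.19 to 0.14) against 0.53 and Pgk1 at -0.020 (interval -0.16 to 0.12) against 0.35. Gapdh and Slc16a3 lay farther from 0, Gapdh at -0.17 (interval -0.36 to 0.0096) against 0.34 and Slc16a3 at -0.24 against 0.34. The scores were computed from these same libraries, and whether they change with genotype was not tested. These limits therefore hold only for the difference beyond that of the scores. In this fit the mean effect was called for 72 genes, 47 higher and 25 lower, including all 24 above, and 0 genes were called for the contrast. For 45 of the 47 the upper end was below the change in the PHD2 line, which the pick by the mean effect again makes likely. Of the 72, 5 had an unadjusted p under 0.05 for the contrast, against 2.43% of all genes. They were Zfp395, Tspan9, Kdm3a and Gzma with negative contrasts and Cd86 with a positive one. Kdm3a, one of the 20 above, was at -0.18 in this fit (interval -0.35 to -0.0066). The median reach over all genes fell from 0.42 to 0.27, and the share inside -0.5 to 0.5 rose to 62.2%.

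The other lists of the HIF pathway showed no common lean. Of 9 genes for HIF subunits and oxygen sensors, 4 were positive and 5 negative, with a median of -0.00031. The narrowest were Arnt, the shared partner, at 0.039 (interval -0.11 to 0.19), and Egln2, the PHD1 gene, at 0.0044 (interval -0.17 to 0.18). Of 25 other HIF target genes, 10 were positive and 15 negative, with a median of -0.05, and 23 had an interval inside -1 to 1. Vegfa, the vascular growth factor gene, gave -0.018 (interval -0.30 to 0.26). Higd1a (0.26, interval -0.069 to 0.60) and Bhlhe40 (0.36, interval -0.15 to 0.88) had the smallest p of the positive members.

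Genes that other cell types have been reported to control mainly through HIF2 are the ones where a positive contrast would be looked for. Of 16 on that list, 10 were tested, 7 were positive and 3 negative, with a median of 0.08, and 0 reached an unadjusted p under 0.05. The sign of this median was not stable: it was -0.15 in the m libraries alone, -0.054 without P2H2WT replicate 18 and up to 0.13 without P2KO replicate 6. Slc11a2 and Slc40a1, which carry iron across membranes, gave 0.24 (interval -0.32 to 0.80) and 0.10 (interval -0.32 to 0.52). Ccnd1, a cyclin gene, gave 0.044 (interval -0.44 to 0.53). Cited2, a transcriptional co-regulator gene, had the smallest p of the list at -0.20 (interval -0.62 to 0.23). Adora2a, an adenosine receptor gene, gave -0.09 (interval -0.49 to 0.31). Epo, which encodes erythropoietin, and Pou5f1 had 0 counts in all 16 libraries. The list had 1 interval inside -0.5 to 0.5 and 7 inside -1 to 1. For 7 of the 10 tested the interval therefore left out a doubling. For most members it did not leave out a difference of 0.5.

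For the machinery of movement, which the title of the series points to, the contrast leaned negative in small steps and no gene was called. Of 37 actin nucleation and actin-binding genes, 32 were negative and 5 positive, with a median of -0.11. Of 19 genes of the ROCK, myosin II and cofilin pathway, 15 were negative, with a median of -0.07. Of 21 adhesion and chemoattractant receptor genes, 20 were negative, with a median of -0.17. No gene on these 3 lists had an unadjusted p under 0.05. Neutrophil markers had the same sign, as given above, and 3 of the 21 adhesion genes are on both lists; the part of neutrophil content in these medians was not tested. The sign was not kept in every fit. With the 2 scores as covariates the medians were 0.02 for actin, 0.03 for contractility and -0.02 for adhesion, and in the 10 m libraries alone they were 0.26, 0.17 and 0.30.

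The limits on these genes were as follows. All 37 actin genes had an interval inside -1 to 1, of the 19 contractility genes 17 and of the 21 adhesion genes 15. Inside -0.5 to 0.5 there were 14, 8 and 6. With the scores as covariates there were 37, 16 and 19, again only for the difference beyond that of the scores.

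Rhoa, described above, gave -0.04 (interval -0.30 to 0.23) around 416 to 588 CPM. Rock1 and Rock2, the kinases downstream of it, gave 0.025 (interval -0.26 to 0.31) and -0.023 (interval -0.23 to 0.18). Cfl1, the actin-severing cofilin, gave -0.063 (interval -0.38 to 0.25), and Wasf2, an activator of branched actin, -0.11 (interval -0.37 to 0.14).

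Receptors for chemoattractants had wide intervals. Cxcr2 gave -0.25 (interval -1.30 to 0.80) and Fpr1 -0.12 (interval -1.15 to 0.91). Itgax, an integrin subunit gene, gave -0.35 (interval -0.75 to 0.058). Itgb1, an integrin subunit present in many cells, was narrow at 0.014 (interval -0.17 to 0.20).

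The nuclear envelope, whose stiffness limits passage through narrow gaps, had a median of 0.0079 over 10 lamina and LINC complex genes, with 6 positive. All 10 had an interval inside -1 to 1. Lmnb1 gave 0.0028 (interval -0.20 to 0.20) and Lbr, the lamin B receptor gene, 0.047 (interval -0.16 to 0.25). Lmna was wider, at 0.28 (interval -0.30 to 0.87). It was at 132 CPM in P2KO replicate 6 and at 223, 230 and 234 CPM in the rest of that group.

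**Figure D4:**
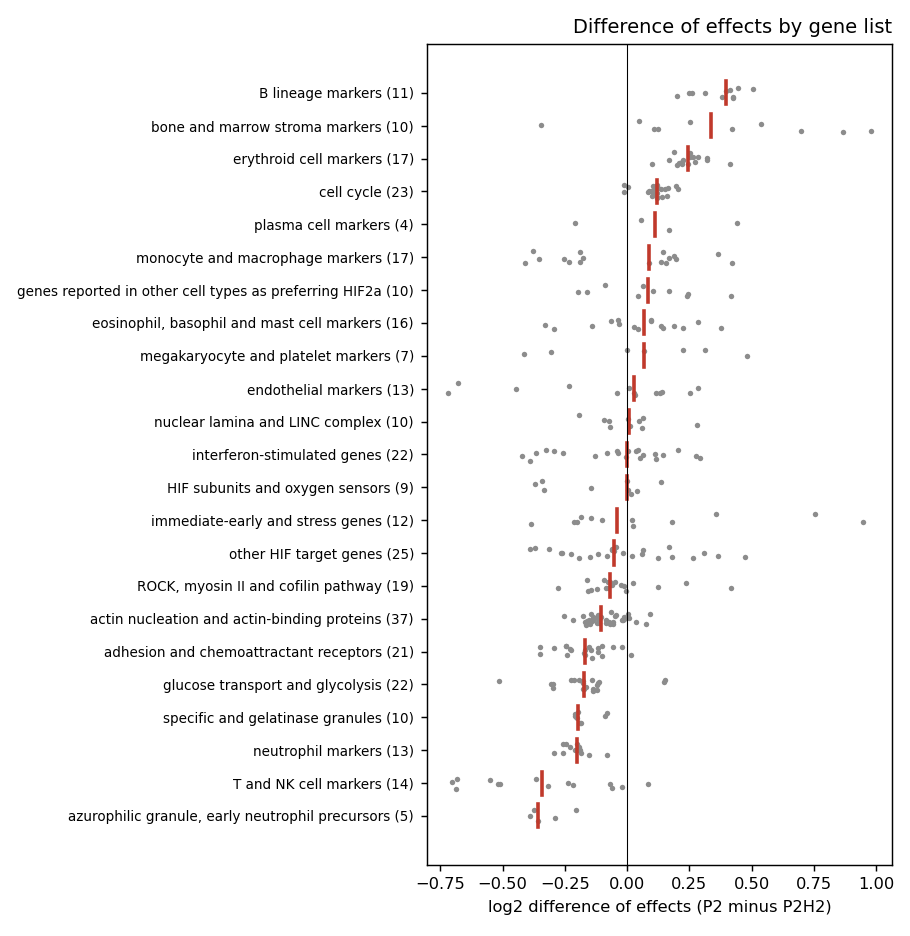
Each grey point is a gene and gives its contrast on a log2 scale (positive for a larger increase in the PHD2 line); red bars are list medians, rows are gene lists with the number of genes tested, and the vertical line marks 0. The medians run from -0.36 for azurophilic granule genes to 0.40 for B lineage markers.

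Further lists covered markers of other cells, the cell cycle and granule genes. All 11 B lineage markers were positive, with a median of 0.40, but only 1 had an interval inside -1 to 1. Bone and marrow stroma markers had 9 of 10 positive and a median of 0.34, which fell to 0.058 with 5 of 10 positive without P2KO replicate 9, and their summed level was 572 to 1467 CPM in the PHD2 line against 225 to 403 CPM in the double line. Of 23 cell cycle genes 21 were positive, with a median of 0.12. All 5 azurophilic granule genes were negative, at a median of -0.36. In the m libraries alone the medians were -0.29 for B lineage, -0.14 for cell cycle, -0.16 for erythroid and 0.50 for neutrophil markers, all with the other sign.

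T and NK cell markers were the list with most genes at small p. Of 14, 13 were negative, with a median of -0.34, and 4 had an unadjusted p under 0.05, all negative, against 1.51% of all genes, and 0 were called. That number was 1 without P2H2KO replicate 12, 2 without P2KO replicate 9, P2WT replicate 3, P2H2WT replicate 13 or P2H2WT replicate 18, and at most 6 in the other fits. These were Thy1, Klrb1c, Gzma and Prf1, the last 2 encoding proteins of cytotoxic granules. The summed level of the list was 93.2, 109, 117 and 126 CPM in the P2KO libraries, which were all below P2WT. In P2WT it was 128 to 149 CPM, in P2H2KO 112 to 157 CPM and in P2H2WT 118 to 148 CPM, so the groups of the double line overlapped. Its part in the values of its members was not tested. Klrb1c, an NK cell receptor gene, was at 3.11, 3.16, 3.24 and 3.66 CPM in P2KO and at 5.30, 5.44, 5.75 and 5.93 CPM in P2WT. It was at 2.93, 3.56, 4.88 and 5.41 CPM in P2H2KO and at 2.79, 4.62, 5.14 and 5.19 CPM in P2H2WT. The PHD2 line did not overlap and the double line did, with a contrast of -0.68 (interval -1.28 to -0.093). Without P2H2KO replicate 11 it was -0.54 and without P2H2KO replicate 12 -0.62, and the unadjusted p was then above 0.05. The median of the list kept its sign with covariates (-0.48) and in the m libraries (-0.49).

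Beyond the lists, genes were named by the smallest unadjusted p, which is not a ranking by size, and none was called. There were 42 negative and 37 positive candidates by the naming rule. Slamf8, a SLAM family receptor of myeloid cells, led the negative ones. It was at 4.31, 4.56, 4.80 and 4.80 CPM in P2KO and at 6.24, 6.39, 7.59 and 8.72 CPM in P2WT. It was at 7.29, 8.01, 8.39 and 10.8 CPM in P2H2KO and at 5.66, 5.76, 8.44 and 9.29 CPM in P2H2WT. The PHD2 line was lower without overlap and the double line overlapped, and the contrast was -0.89 (interval -1.41 to -0.38).

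Cd14, the co-receptor for bacterial lipopolysaccharide, was at 5.95, 6.64, 8.68 and 9.29 CPM in P2KO and at 10.03, 10.03, 12.7 and 15.4 CPM in P2WT. It was at 8.14, 8.78, 12.5 and 17.4 CPM in P2H2KO and at 9.90, 10.1, 10.9 and 12.0 CPM in P2H2WT. As for Slamf8, the PHD2 line did not overlap and the double line did, with a contrast of -0.78 (interval -1.44 to -0.12), but in the m libraries alone it was near 0 (interval -0.45 to 0.44). The unadjusted p was above 0.05 without P2KO replicate 9 (-0.68), P2WT replicate 7 (-0.65) or P2H2KO replicate 15 (-0.52). The summed level of 17 monocyte and macrophage markers had the same arrangement as Slamf8 and Cd14, at 2435 to 2849 CPM in P2KO against 3019 to 3580 CPM in P2WT, and at 2490 to 4279 CPM in P2H2KO against 2801 to 4162 CPM in P2H2WT. Gene by gene, the contrast of the 17 markers had a median of 0.086, with 9 positive and 8 negative, against negative contrasts for Slamf8 and Cd14. None of these markers was at 0 in a group, and their part in the values of Slamf8 and Cd14 was not tested. Gab2, a signalling adaptor gene, was at 32.0, 32.1, 36.2 and 38.0 CPM in P2KO, at 34.5, 35.2, 41.4 and 44.4 CPM in P2WT, at 37.3, 40.6, 46.3 and 49.0 CPM in P2H2KO and at 33.6, 35.6, 37.7 and 38.0 CPM in P2H2WT. All groups overlapped within lines, and the contrast of -0.43 (interval -0.73 to -0.12) came from small shifts in opposite directions.

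Among the positive genes, Tmem41b, which encodes a lipid scramblase of the endoplasmic reticulum, was at 15.3, 16.3, 17.4 and 17.5 CPM in P2KO and at 13.4, 13.4, 14.3 and 15.3 CPM in P2WT. It was at 13.7, 14.5, 14.8 and 15.8 CPM in P2H2KO and at 14.98, 15.1, 16.1 and 16.1 CPM in P2H2WT. The PHD2 line did not overlap and the double line did, with a contrast of 0.32 (interval 0.11 to 0.53). Mavs, an adaptor of antiviral signalling, gave 0.26 (interval 0.055 to 0.47), with another arrangement. Its groups overlapped in the PHD2 line. In the double line it was lower without overlap, at 40.4 to 43.4 CPM in P2H2KO against 45.2 to 49.0 CPM in P2H2WT. Cdk5rap1, which encodes an enzyme that modifies mitochondrial transfer RNA, gave 1.08 (interval 0.30 to 1.86), with P2H2WT libraries scattered from 5.73 to 17.4 CPM.

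Prg4, which encodes the joint lubricant lubricin, had the largest estimate of the named genes. It was at 2.66, 4.34, 4.94 and 7.33 CPM in P2KO and at 0.0751, 0.108, 0.514 and 0.890 CPM in P2WT. It was at 0.251, 0.303, 0.677 and 4.11 CPM in P2H2KO and at 0.116, 0.215, 2.27 and 69.4 CPM in P2H2WT. The PHD2 line did not overlap, and 1 P2H2WT library, replicate 18, held most of the reads of the other line. The contrast of 7.36 became 2.97 without that library (interval -0.097 to 6.04).

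**Figure D5:**
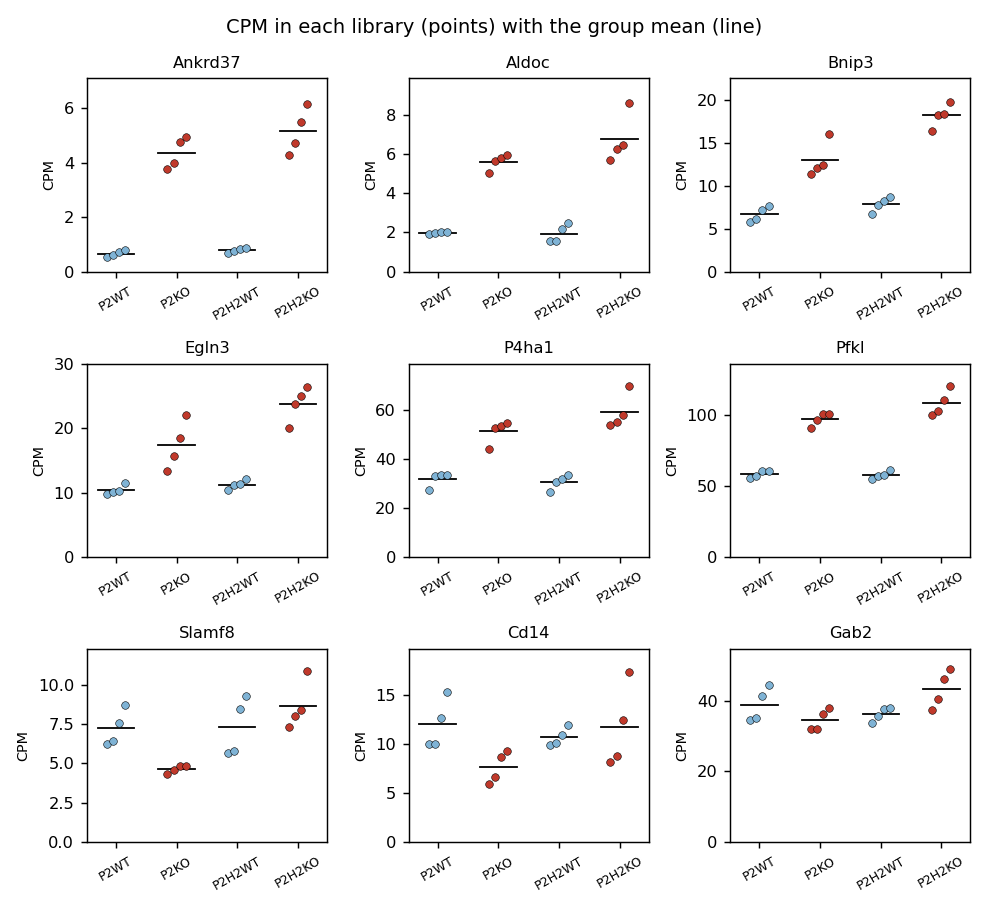
Each panel shows 1 gene, with CPM on a vertical axis that starts at 0 and the 4 groups on the horizontal axis; points are libraries (red for deficient, blue for control) and lines are group means. Ankrd37, Aldoc, Bnip3, Egln3, P4ha1 and Pfkl rise in both lines, whereas Slamf8 is lower in P2KO, at 4.31 to 4.80 CPM, than in P2WT.

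The number of small p values also depended on single libraries. Without P2KO replicate 6, 600 genes (4.21%) had an unadjusted p under 0.05 for the contrast, with 283 positive and 317 negative, and the called number was still 0. Of the 21 adhesion genes, 5 then had an unadjusted p under 0.05, all negative, and their median was -0.44. Leaving out P2H2KO replicate 11 gave 391 genes, P2H2WT replicate 16 341 and P2H2KO replicate 12 324, against 155 without P2WT replicate 7.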

How the data were processed

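The authors deposited 2 tables of raw read counts per gene, 1 for each line, with 8 libraries and 49585 Ensembl identifiers in each, per the file headers. The values are whole numbers with no normalization. The submitters' processing notes name HTSeq and mm10; the aligner, annotation release, use of strand, sorting gates and library dates are not given in the sources used here, so overlapping or near-identical genes can share reads. The tables were joined on the identifier, and GENCODE M21 symbols matched 49326 of them.

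Genes were filtered with filterByExpr in edgeR 4.0.16 (R 4.3.3), scaled with TMM and fitted with glmQLFit (robust) on 4 group means over all 16 libraries, with 2-sided glmQLFTest p values adjusted by Benjamini-Hochberg over 14080 genes at a threshold of 0.05. The tests were the contrast, the mean of the 2 effects, and each effect. The 2 effects share no library. The 95% interval is the estimate plus or minus the t quantile times the standard error of the quasi-likelihood fit (median 15.2 degrees of freedom), and the joint interval uses a Bonferroni level. CPM values were computed from the deposited counts and the TMM-scaled sizes. Egln1, Epas1, Hif1a and Rhoa were tested by exact permutation on log2(CPM + 1). The procedure was also run on simulated counts, drawn for each gene independently around flat means with added changes. Such counts lack the shared shifts between libraries seen here, so they do not show how well the intervals hold in these data. Transcript identity was measured with blastn 2.17.0.

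Named genes were those 4, up to 20 genes called for the mean effect, up to 10 in each direction with the smallest unadjusted p of the contrast under 0.05 at 5 CPM or more in a group (predicted genes, pseudogenes and receptor segments left out), and the smallest p of each of 24 lists. Other list members, Dmp1, Il18, Marco, Apba3, Gm26571, Zfp395, Tspan9 and Cd86 were named after their values were seen. Results for 1 list and 1 gene are not reported here. The members and lists were chosen with earlier results of these data known, and list directions are no independent support. Alternatives were RLE and upper-quartile scaling, testing with DESeq2 1.42.0, dropping the filter, requiring 10 counts throughout, limma-voom (limma 3.58.1), the suffix or 2 content scores as covariates, m libraries alone, each line fitted alone, a pseudocount of 0.25, and leaving out each library.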

Additional observations from a re-analysis of the deposited data

Results flagged for a closer look

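In 15 of 272 groups of 4 libraries (68 named genes, 5.51%), 1 library lay far from the other 3, by a gap that, relative to the group's range, exceeded Dixon's 95% critical value; chance gives about 1 in 20. Of these, 7 fell on P2KO replicate 6 and 3 on P2WT replicate 10.

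P2KO replicate 6 was the highest of its group for Hif1a at 90.5 CPM (others 72.6 to 73.3), Dubr at 33.4 CPM (others 16.3 to 17.4), Cited2 at 179 CPM (others 114 to 121) and Gm26571 at 0.632 CPM (others 0.380 to 0.422). It was the lowest for Lmna at 132 CPM (others 223 to 234), Aurka at 132 CPM (others 164 to 168) and Wwc2 at 12.2 CPM (others 14 to 14.2). P2WT replicate 10 was the lowest for P4ha1 at 27.0 CPM (others 32.9 to 33.5) and Cdk5rap1 at 5.73 CPM (others 8.15 to 8.26), and the highest for Ngp at 14137 CPM (others 9104 to 9420).

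Prg4 was at 69.4 CPM in P2H2WT replicate 18 (others 0.116 to 2.27) and at 4.11 CPM in P2H2KO replicate 12 (others 0.251 to 0.677). Grhpr was at 16.3 CPM in P2H2KO replicate 15 (others 20.2 to 20.9), Nhej1 at 7.21 CPM in P2KO replicate 1 (others 6.48 to 6.6) and Gm26571 at 0.426 CPM in P2H2WT replicate 16 (others 0.179 to 0.202).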

How the results depend on the processing

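The contrast called 0 genes in all 10 alternative fits and in the 16 that left out a library, with smallest adjusted p values of 0.109 with DESeq2 and 0.167 without P2WT replicate 3. Its count at an unadjusted p under 0.05, 212, was 551 with no filter and 342 with the content scores as covariates, and ran from 155 to 600 when libraries were left out. The number of genes inside -1 to 1 ran from 10370 to 10927. The mean effect, 24 genes, numbered 65 with DESeq2, 72 with the scores and 14 in the m libraries, and 15 to 30 over the left-out libraries. The effect in the PHD2 line, 10 genes, numbered 30 with the scores, 5 in the m libraries and 6 with each line fitted on its own, and 6 to 11 over the left-out libraries. The effect in the double line, 12 genes, numbered 38 with DESeq2, 36 with the scores and 6 in the m libraries, and 10 to 18. The difference on the log2(CPM + 1) scale ran from -0.086 to 0.056 for Egln1, changing sign in 6 of 16 fits, from -0.78 to -0.21 for Epas1, from -0.40 to -0.20 for Hif1a and from -0.094 to 0.026 for Rhoa, changing sign in 2. Values of the 68 named genes were compared over the alternatives that used all libraries or the m libraries alone. Of these, 31 lost an unadjusted p under 0.05 and 14 gained it. Among genes without it in the main fit, 21 other values moved by more than 1 standard error. The remaining 608 include values that kept it, for which the size of the move was not examined. No paired analysis was possible because no replicate number in the titles is shared between groups. Causes of these shifts were not tested, except that fewer libraries give wider intervals.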
